A study of Saccharomyces cerevisiae with 12 samples.

Results

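The proteasome subunit genes of budding yeast and RPN4, the gene of the transcription factor that activates them, were followed across 12 RNA-seq libraries. The members were chosen by name: 7 alpha and 7 beta subunits of the 20S core, the 6 ATPases RPT1 to RPT6, the 11 non-ATPases RPN1, RPN2, RPN3 and RPN5 to RPN12, and RPN4 (YDL020C). These 32 genes, 31 of them subunits, were all present among the 5917 coding sequences measured. All libraries came from BY4741, a haploid laboratory strain, either wild-type or mrn1Δ, which lacks the RNA-binding protein Mrn1. Fermentative cells were in log phase in YEPD with 2% glucose at an OD600 of 0.6, and the cells called respiratory had been moved for 20 minutes to medium with 2% ethanol and 2% glycerol. The respiratory group is therefore an early response to a new carbon source and not steady respiratory growth. Each of the 4 groups held 3 libraries of total RNA depleted of ribosomal RNA.

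The 26S proteasome degrades proteins tagged with ubiquitin. Its core is a barrel of stacked alpha and beta rings with the proteolytic sites on beta subunits inside, and the regulatory particle binds ubiquitin, removes it and unfolds the substrate with a ring of ATPases. In yeast the subunit genes share a short upstream element, the proteasome-associated control element (PACE), that is bound by Rpn4. Rpn4 is itself a very short-lived substrate of the proteasome, so that less degradation leads to more Rpn4 and more subunit mRNA. RPN4 is in turn a target of the stress factors Yap1, Pdr1, Pdr3 and Hsf1.

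The element the genes share is shown first, because it is the feature that ties the members together. The members were chosen by name and not by a search for it. The element is already known for these genes, so finding it is a description and not a test. The 500 bases before the start codon were read from the R64 genome (RefSeq) for 5909 genes and searched on both strands for the 9 letters GGTGGCAAA. The site was found upstream of 27 of the 31 subunit genes and of 1.66% of all genes, these 27 included. The other 4 subunit genes, PRE5, PUP1, RPN8 and RPN10, held the 7-letter core GTGGCAA, which lies within the longer site and occurred upstream of 7.67% of all genes. In every subunit gene the nearest match ended 76 to 175 bases before the start codon, in 22 genes on the strand of the gene and in 9 on the opposite strand. Windows of 27 bases are printed below for the subunits with the largest changes on the carbon shift and for the genes with the core alone, 5′ to 3′ in the orientation of the site, with the matching letters in capitals.
RPN11 (VI, chrVI:153260-153286, plus strand): gacctccaaGGTGGCAAAttcacaaga
RPN6 (IV, chrIV:286791-286817, minus strand): ggttccaagGGTGGCAAAtgttggtag
PUP2 (VII, chrVII:999227-999253, minus strand): accaagaccGGTGGCAAAagagtaacc
RPN7 (XVI, chrXVI:742291-742317, minus strand): tcctcaatgGGTGGCAAActtaactta
PRE1 (V, chrV:177684-177710, plus strand): aatctttacGGTGGCAAAaaataaaga
PRE3 (X, chrX:435036-435062, plus strand): acggaatccGGTGGCAAAaaagggaaa
PRE5 (XIII, chrXIII:901553-901579, plus strand): ctattatagaGTGGCAAaattaaaaat
PUP1 (XV, chrXV:631892-631918, minus strand): acccggccgaGTGGCAAaataccaaaa
RPN8 (XV, chrXV:817086-817112, minus strand): ggatacctcaGTGGCAAatcgttactc
RPN10 (VIII, chrVIII:498888-498914, minus strand): taaacaagaaGTGGCAAcaacatcagc

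RPN4 itself (chromosome IV, 415113 to 416708, minus strand) had no PACE in its window. The letters of its own regulators were present, and they are shown because the factors that bind them are described below with the pathway genes. The Yap1 element TTACTAA was found 1 time, 368 bases before the start codon, and in 11.9% of all windows. The Pdr1 and Pdr3 element TCCGTGGA was found 2 times, 392 and 435 bases before the start codon, and in 1% of windows. A run of 3 heat shock units bound by Hsf1 (TTC, GAA and TTC, each 2 letters apart) was found 336 and 9 bases before the start codon and in 1.5% of windows. A match describes letters only and does not show binding.
RPN4, heat shock units (IV, chrIV:417037-417063, minus strand): gtgatggTTCtaGAAagTTCcgtttcg
RPN4, Yap1 element (IV, chrIV:417066-417092, minus strand): gtgatcgctaTTACTAAtagccgttta
RPN4, Pdr1/Pdr3 element (IV, chrIV:417134-417159, minus strand): ataacaagtTCCGTGGAactcaaaga

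Library totals ranged from 16231559 to 26542199 estimated counts, of which the 31 subunit genes took 0.517% to 0.632%. No member had a count that was not whole, overlapped another annotated gene or fell under the filter on low counts. MRN1 had 1676 to 3303 counts in wild-type and 2 to 15 in mrn1Δ libraries, and JEN1, a lactate transporter repressed by glucose, had 270 to 372 counts before the shift and 12714 to 40862 after it. STE2, the pheromone receptor gene of MATa strains such as BY4741, was present with 1504 to 4598 counts, and the marker genes URA3, LEU2 and MET17, deleted in BY4741, had at most 12. The wild-type fermentative library 1 stood apart: its subunits lay a median of 0.129 (log2) above their mean over all libraries, where the other 11 libraries lay between -0.076 and 0.05. It also stood apart over all genes and not in the subunits alone. Against libraries 2 and 3 of its group its counts had a chi-square per degree of freedom of 118 and 74.1. The other pairs of libraries within a group had 11.2 to 64.7. The cause was not tested, and results that rest on this library are also given without it. The replicates were triplicate cultures, by the study's methods, so the tests measure the spread between cultures.

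Per length of gene, RPN4 was on average the most abundant member and the subunits lay in a narrow band. In TPM, transcripts scaled to a library total of 1000000, the 31 subunits differed by at most 2.02- to 2.89-fold within a library, with an SD of 0.253 to 0.314 on the log2 scale, where all genes had an SD of 2.24 to 2.49. In wild-type fermentative cells RPN4 measured 297 ± 35.2 TPM (SD, n = 3), with 268, 286 and 336 in the 3 libraries. The highest subunits were PUP3 (beta 3) with 281 ± 29.6 TPM, PRE1 (beta 4) with 228 ± 24.96 TPM and PRE9 (alpha 3) with 212 ± 7.94 TPM. RPN12, RPN11 and RPN9, all in the lid of the regulatory particle, were lowest with 130.0 ± 3.01, 127 ± 10.7 and 116 ± 9.40 TPM. The order within this band was not sharp: of the 31 steps from a member to the next lower, 29 joined genes whose 3 libraries overlapped, RPN4 and PUP3 among them, and only PUP3 over PRE1 and PRE8 over PRE7 did not overlap.

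**Figure D1:**
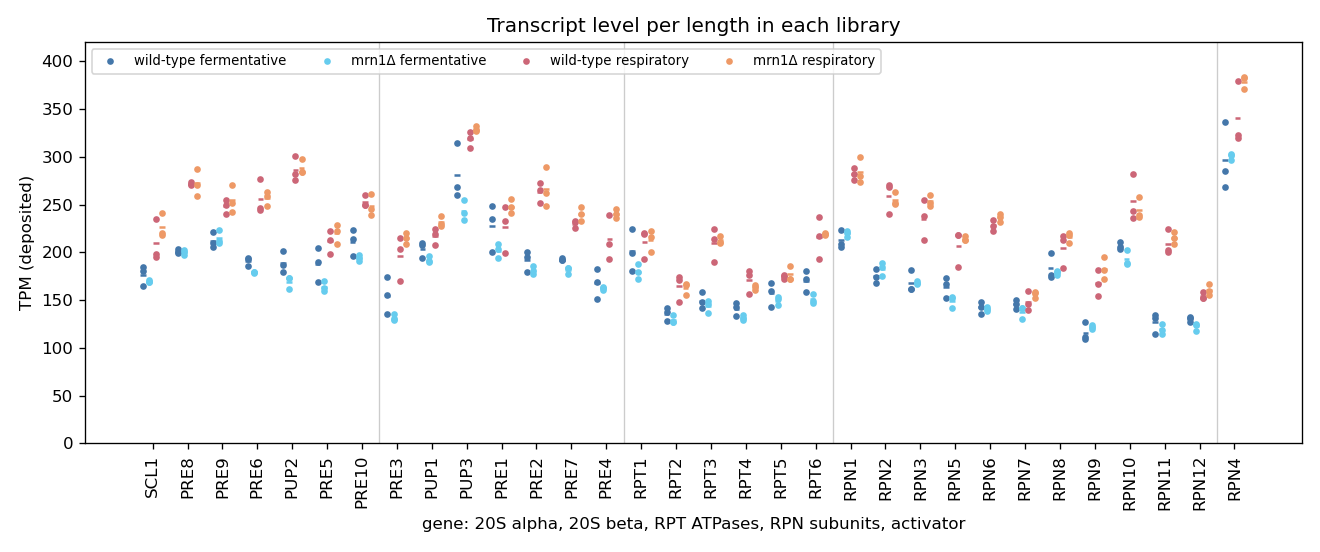
Deposited TPM of each member in the 12 libraries (y axis, linear from 0) by gene (x axis); points are libraries, coloured by group, and short lines are group means. RPN4 reached 268 to 384 TPM, the 31 subunits stayed between 109 and 332 TPM, and nearly every gene was higher on this scale in the respiratory libraries, as was the median of all genes.

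The core subunits were somewhat more abundant per length than the regulatory particle. In wild-type fermentative cells the library medians averaged 195 ± 5.81 TPM for the alpha and 196.5 ± 3.44 TPM for the beta subunits. The corresponding values were 153 ± 7.19 TPM for the ATPases and 162 ± 10.3 TPM for the non-ATPases, and the lowest core median, 189.6 TPM, lay above the highest of the other groups, 173 TPM. After the shift the same medians were 249 ± 0.131 (alpha), 226.5 ± 16.1 (beta), 192 ± 8.54 (ATPases) and 214 ± 12.7 TPM (non-ATPases). The beta medians, 208 to 239 TPM, then overlapped those of the non-ATPases, 200 to 225 TPM. In mrn1Δ respiratory cells the lowest core median, 239.7 TPM, lay above the highest of the other groups, 221 TPM.

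That rise in TPM was not particular to the proteasome. The median of all genes rose with it, from 32.5 to 35.6 TPM in the wild-type fermentative libraries to 42.8 to 46.3 TPM in the wild-type respiratory libraries. Changes were therefore tested on counts scaled by TMM, a method that centres most genes, and for the members the text turns on the position against the median of all genes is given too. A scale moves all genes of a comparison by nearly the same amount. That position therefore hardly changes with the scale by construction, and agreement across scales is not a separate check. The tests used edgeR's quasi-likelihood method with Benjamini-Hochberg adjustment over all genes tested, and a gene was called at an adjusted p under 0.05. Total RNA per cell was not measured, so all changes are relative to the other genes. A change shared by all genes would not be seen.

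The first comparison asks what the carbon shift did to the proteasome genes in wild-type cells. While most of the transcriptome moved, the subunits barely did: 6 of 31 were called higher, against 38.6% of all 5801 genes tested, and 3 of 31 were called lower, against 36.4%. The median log2 fold change of the subunits was -0.003, beside 0.035 for all genes. Their changes spanned -0.315 to 0.41 with an SD of 0.19, beside an SD of 1.14 over all genes, of which 30.6% lay beyond 2-fold. The counts depended on single libraries: 2 were higher without the wild-type fermentative library 3, 3 were higher without the respiratory library 3, and 1 was lower without the respiratory library 2. Without the wild-type fermentative library 1 they were 6 and 3 and the median was 0.016. The 95% interval of every subunit lay within a 2-fold change in either direction, which was true of 55.3% of all genes.

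RPN4 was not called on the shift. It measured 442.5, 454 and 494 normalized CPM (counts scaled to 1000000 with TMM) in wild-type fermentative libraries and 406, 412 and 457 after the shift, and the groups overlapped. Its log2 fold change was -0.10 ± 0.09 (SE), with a 95% interval of -0.30 to 0.10 and an adjusted p of 0.32 (edgeR). In mrn1Δ cells RPN4 measured 469, 455.5 and 479 normalized CPM before and 452, 459 and 473 after the shift, a log2 fold change of -0.02 ± 0.05 with an interval of -0.14 to 0.10 and an adjusted p of 0.756 (edgeR). The direction of this small difference depended on the scale in mrn1Δ: it was 0.15 (adjusted p = 0.0204, edgeR) with scaling by library totals alone and 0.33 (adjusted p = 0.000188, limma) on log2(TPM + 1). On those scales the median of all genes was 0.215 and 0.38, and relative to the median of all genes RPN4 lay between -0.14 and -0.05 in both genotypes on all 5 scales.

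In mrn1Δ cells the changes of the subunits were again small, but more of them were called higher than in wild-type. Of the 31, 13 were called higher, near the share of all genes, 43.2% of the 5793 tested. Only 1 was called lower, against 40.3%. Values above 0 were found for 21 subunits, beside 15 in wild-type. The median was 0.07, beside 0.05 for all genes, and the range was -0.17 to 0.50. All 31 intervals again lay within 2-fold, beside 57.5% of all genes. The median SE of a subunit was 0.05 here and 0.09 in the wild-type shift. Among the genes called higher here alone, PRE3 was at 0.35, PRE4 at 0.21, RPT6 at 0.185 and RPN5 at 0.17. In wild-type these 4 were at 0.035, 0.04, 0.04 and 0.03. Without the wild-type fermentative library 1 they were at 0.15, 0.13, 0.06 and 0.06 there. PRE6, PRE2 and RPN3 were closer, at 0.17, 0.205 and 0.24 beside 0.12, 0.16 and 0.18 in wild-type. Why more genes were called in mrn1Δ was not tested.

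**Figure D2:**
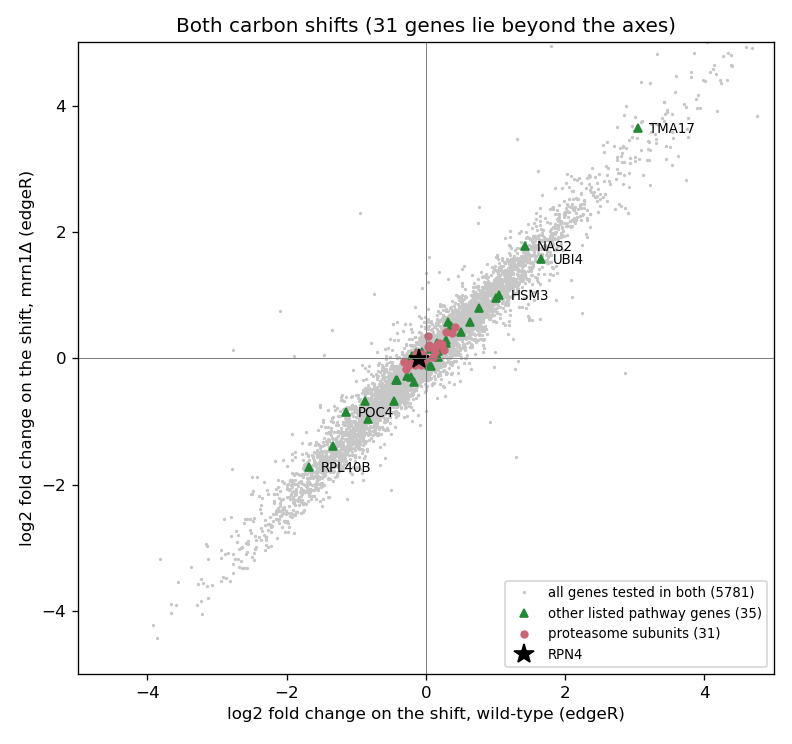
Log2 fold change on the carbon shift in wild-type (x axis) and mrn1Δ (y axis), from edgeR; grey points are all 5781 genes tested in both, red points the 31 subunits, green triangles 35 other genes of the ubiquitin and proteasome pathway, and the star RPN4, with 31 genes beyond the axes. Subunits and RPN4 crowd around 0, while TMA17 at 3.04 and 3.64 and UBI4 at 1.65 and 1.57 lie far out.

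By the simpler measure of whether the 3 libraries before and after the shift overlap, 9 subunits lay wholly higher and 8 wholly lower in wild-type, against 39.5% and 38.6% of all genes. In mrn1Δ the counts were 14 higher and 6 lower, against 43.6% and 41.1%. Such subunits were thus rarer than such genes in general, except those higher in mrn1Δ, which were near the share of all genes.

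The calls overlapped in part between the genotypes. All 6 genes called higher in wild-type (PUP2, RPT3, RPN2, RPN6, RPN9 and RPN11) were among the 13 called higher in mrn1Δ, and RPN7 was 1 of 3 called lower in either and the only one called lower in both. No subunit was called in opposite directions. Over the 31 subunits the log2 fold changes of the 2 shifts, which share no library, had a Pearson correlation of 0.85 and the same sign in 25, and differed by 0.10 on average. Over the 5781 genes tested in both the correlation was 0.97, with the same sign in 5363. These are descriptions across genes, which are not independent of each other.

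RPN11 (YFR004W), the lid enzyme that cuts ubiquitin chains off substrates, changed most. It measured 122, 103 and 112 normalized CPM in wild-type fermentative libraries and 145, 144 and 152.5 after the shift, and in mrn1Δ it went from 104, 98.5 and 111 to 152, 141 and 149.8. No respiratory library overlapped a fermentative one. The log2 fold changes were 0.41 ± 0.09 and 0.50 ± 0.06 (SE), with adjusted p-values of 0.00162 and 1.21e-05 (edgeR), and the gene lay above the median of all genes by 0.38 to 0.47 on all 5 scales. By TPM it moved from rank 31 of the 32 members to rank 23 in wild-type.

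RPN6 (YDL097C), a lid scaffold that contacts both the core and the ATPase ring, followed. It measured 181, 184 and 177 normalized CPM before and 229.6, 236.5 and 229 after the shift in wild-type, and in mrn1Δ 181, 175 and 178 before and 229, 231 and 241 after. Groups did not overlap and the libraries of a group agreed closely. The log2 fold changes were 0.38 ± 0.07 and 0.40 ± 0.05, with adjusted p-values of 0.000593 and 3.4e-05 (edgeR), and the gene lay above the median of all genes by 0.345 to 0.36 on all 5 scales.

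PUP2 (YGR253C), alpha 5, rose by 0.295 ± 0.09 in wild-type and 0.42 ± 0.05 in mrn1Δ, with adjusted p-values of 0.0118 and 2.95e-05 (edgeR). Its wild-type libraries measured 157, 135 and 130.0 normalized CPM before and 170.0, 168 and 172 after the shift. The mrn1Δ libraries measured 127.5, 117 and 129.7 before and 164, 169.7 and 166 after. The wild-type call was lost without the wild-type fermentative library 3, with a log2 fold change of 0.217 and an adjusted p of 0.08 (edgeR). Of the remaining shared calls, RPN9 changed by 0.23 in both genotypes, RPT3 by 0.19 and 0.21, and RPN2, a scaffold of the base, by 0.27 and 0.13. These smaller calls were less firm. The wild-type call of RPT3 was lost with DESeq2 (adjusted p = 0.0961), with upper-quartile scaling (0.0676), with a looser or a stricter filter on low counts (0.0504 and 0.0666) and when any of 5 of its 6 libraries was left out, all but respiratory library 2, with log2 fold changes of 0.15 to 0.19. The mrn1Δ call of RPN2 was lost with DESeq2 (adjusted p = 0.149), with the looser filter (0.0511), with all 12 libraries in one fit (0.106) and when any of 5 of its 6 libraries was left out, all but fermentative library 3, with log2 fold changes of 0.09 to 0.14. In wild-type, RPN2 was lost without fermentative library 3 (0.23) or respiratory library 1 (0.22) or 3 (0.26), and RPN9 without fermentative library 3 (0.23) or respiratory library 3 (0.20).

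RPN7 (YPR108W), also in the lid, went the other way. It measured 194, 179.6 and 177 normalized CPM before and 149, 143 and 154 after the shift in wild-type, and 162, 174.5 and 179.5 before and 148, 152.5 and 156 after in mrn1Δ. Every respiratory library lay below every fermentative one of its genotype. On counts with TMM the log2 fold changes were -0.28 ± 0.07 and -0.17 ± 0.05 with adjusted p-values of 0.00646 and 0.0111 (edgeR), whereas on log2(TPM + 1) they were 0.02 and 0.179, below the median of all genes of 0.32 and 0.38. Relative to the median of all genes RPN7 lay between -0.32 and -0.20 on all 5 scales, and by TPM it moved from rank 26 of 32 to the last rank in both genotypes.

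PRE1 (YER012W, beta 4) and PUP1 (YOR157C, beta 2, the trypsin-like active site) were called lower in wild-type alone. PRE1 measured 145, 113 and 122 normalized CPM before and 105, 90.3 and 106 after the shift, a log2 fold change of -0.315 ± 0.11 (adjusted p = 0.0285, edgeR), which was -0.008 on log2(TPM + 1). PUP1 went from 163, 147 and 146.5 to 132, 127 and 129, a log2 fold change of -0.21 ± 0.08 (adjusted p = 0.0289, edgeR) that was 0.09 on log2(TPM + 1). Leaving out the wild-type respiratory library 2 ended both calls, with log2 fold changes of -0.24 and -0.19 and adjusted p-values of 0.103 and 0.082 (edgeR), and that of PUP1 was also lost without the respiratory library 3 (-0.21, adjusted p = 0.0851). In mrn1Δ their log2 fold changes were -0.06 ± 0.05 and -0.08 ± 0.05 and were not called. The next lowest gene in wild-type, the ATPase RPT1, had -0.24 ± 0.11 (adjusted p = 0.0816, edgeR). Without the wild-type fermentative library 1 RPT1 was at -0.136. PRE1 and PUP1 were then at -0.227 and -0.181, both still called (adjusted p = 0.0316 and 0.0281, edgeR).

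**Figure D3:**
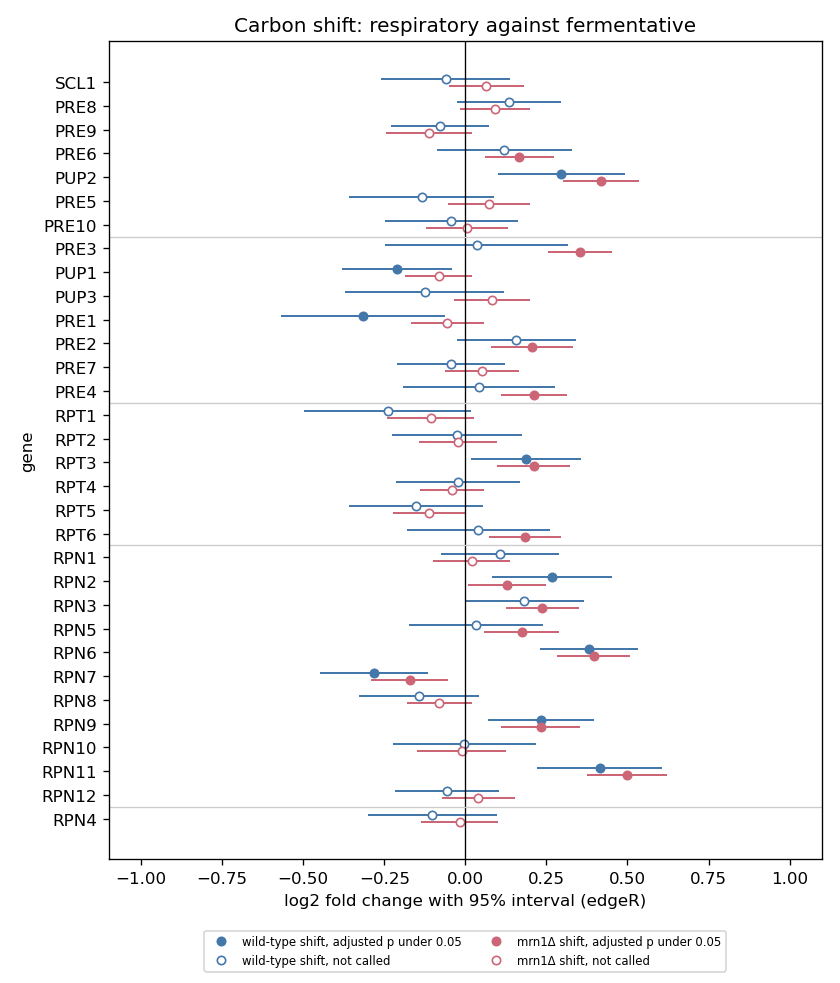
Log2 fold change on the carbon shift (x axis) of each member (y axis) in wild-type (blue) and mrn1Δ (red), with 95% intervals from edgeR; filled points have an adjusted p under 0.05. RPN11, RPN6 and PUP2 lie to the right and RPN7 to the left in both genotypes, and no subunit interval reaches a 2-fold change (1 on this axis), the widest bounds being -0.568 and 0.623.

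Each part of the particle held called subunits in both shifts, and differences between the parts were not tested. Among the 11 non-ATPases 4 were higher and 1 lower in wild-type and 6 higher and 1 lower in mrn1Δ, with medians of 0.11 and 0.13. Of the 7 beta subunits 2 were lower in wild-type and 3 were higher in mrn1Δ: PRE3 (beta 1, the caspase-like site), PRE2 (beta 5, the chymotrypsin-like site) and PRE4 (beta 7), at 0.35, 0.205 and 0.21. PRE2 was also called higher in wild-type (0.19, adjusted p = 0.0382, edgeR) without the wild-type fermentative library 1. The 7 alpha subunits had 1 higher in wild-type and 2 in mrn1Δ, and the 6 ATPases 1 and 2. Over all genes 38.6% and 43.2% were higher and 36.4% and 40.3% lower. In mrn1Δ the lowest subunits after RPN7 were PRE9 and RPT5, both at -0.11.

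The counts of calls depended on the scale. The position against the median of all genes hardly did, by construction, because a scale moves all genes by nearly the same amount. With library totals alone 24 subunits were called higher and 0 lower in mrn1Δ, where 2910 of all genes were higher and 1976 lower. On log2(TPM + 1) with limma 23 were higher in wild-type and 31 in mrn1Δ, with 0 lower in both. On log2(TPM + 1) the same test called 2938 genes higher and 1432 lower in wild-type and 3323 and 1628 in mrn1Δ, where edgeR with TMM called 2238 and 2112, and 2503 and 2333. The subunits' median on log2(TPM + 1) was 0.29 and 0.42, beside 0.32 and 0.38 for all genes, and all 31 intervals still lay within 2-fold. Relative to the median of all genes 11 subunits lay above it and 11 below it in both genotypes on all 5 scales, and the other 9 lay on different sides by genotype or scale.

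With the replicate number as a block, which the libraries of each shift share, 4 subunits were called lower in mrn1Δ in place of 1 (PRE9, RPT1 and RPT5 were added), and 4 lower and 7 higher in wild-type. Of all genes 2383 of 5793 were then lower in mrn1Δ, and 2199 of 5801 lower and 2328 higher in wild-type. The 3 genes added in mrn1Δ were also called with DESeq2. RPT1 and RPN3, added in wild-type, were also called with all 12 libraries in one fit. Both of these fits keep the wild-type fermentative library 1. Without that library and with no block, RPT1 was at -0.136 and was not called (adjusted p = 0.154, edgeR).

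The genes around the proteasome did not share the narrow range of its subunits. Of 35 other genes listed for the pathway 13 were called higher and 10 lower in the wild-type shift, 65.7% in all, and 15 and 12 in mrn1Δ, 77.1% in all, where 38.6% and 36.4% of all genes were called in wild-type and 43.2% and 40.3% in mrn1Δ. Their log2 fold changes had an SD of 0.87 and 0.94, beside 1.14 and 1.26 over all genes and 0.19 and 0.17 over the subunits. Beyond 2-fold lay 8 and 5 of them, 22.9% and 14.3%, fewer than the 30.6% and 33.4% of all genes. Without the wild-type fermentative library 1 POC4 (-0.92) and HUL5 (0.895) no longer lay beyond 2-fold in wild-type. The subunits outside the member rule, RPN13 and SEM1, were not called in either shift, with log2 fold changes between -0.133 and 0.09.

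Assembly chaperones of the regulatory particle included the gene of the 35 with the largest change. TMA17, a chaperone that helps pair ATPase subunits under stress, measured 15.2, 14.5 and 12.4 normalized CPM in wild-type fermentative libraries and 115, 109.7 and 116.5 after the shift. In mrn1Δ it went from 12.1, 11.1 and 13.3 to 145, 143 and 167. The log2 fold changes were 3.04 ± 0.09 and 3.64 ± 0.09, an 8.22-fold and a 12.5-fold rise, with adjusted p-values of 1.73e-08 and 1.6e-10 (edgeR).

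The base chaperones NAS2, HSM3 and RPN14 rose as well. NAS2 went from 19.8, 12.7 and 13.8 to 41.3, 43.1 and 38.4 normalized CPM in wild-type, a log2 fold change of 1.43 ± 0.16, and by 1.77 ± 0.07 in mrn1Δ. HSM3 went from 24.0, 24.0 and 22.6 to 47.3, 45.2 and 51.0 in wild-type, a log2 fold change of 1.05 ± 0.08, and by 0.995 ± 0.08 in mrn1Δ. RPN14 rose by 0.31 and 0.57, where the wild-type call was lost without fermentative library 3 (0.26) or respiratory library 1 (0.265), while NAS6, the fourth chaperone of the base, was not called.

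The chaperones of the core did not share this rise. POC4, a partner in alpha ring assembly, was lower by -1.14 ± 0.22 in wild-type and -0.86 ± 0.17 in mrn1Δ, from low levels of 9.69 to 16.2 and 8.13 to 9.98 normalized CPM. The wild-type value of POC4 was -0.92 without the fermentative library 1. Its partner IRC25 was lower by -0.42 and -0.35 and the alpha ring chaperone PBA1 by -0.37, called in mrn1Δ alone. The difference between the genotypes was not called for PBA1 (adjusted p = 0.366, edgeR). UMP1, which is degraded by the new proteasome it helps to build, was lower by -0.22 in wild-type (adjusted p = 0.045, edgeR), and ADD66 was not called. These smaller values moved with the scale: on log2(TPM + 1) UMP1 was at 0.08 in wild-type and IRC25 at 0.01 and PBA1 at -0.015 in mrn1Δ. In wild-type the call of IRC25 was lost without fermentative library 1 (-0.27) or respiratory library 2 (-0.29) or 3 (-0.47), and that of UMP1 without fermentative library 1 (-0.17) or 2 (-0.245) or respiratory library 2 (-0.20) or 3 (-0.20). Of the 10 chaperones 4 were called higher and 3 lower in each shift. Over all genes 38.6% were higher and 36.4% lower in wild-type, and 43.2% and 40.3% in mrn1Δ.

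**Figure D4:**
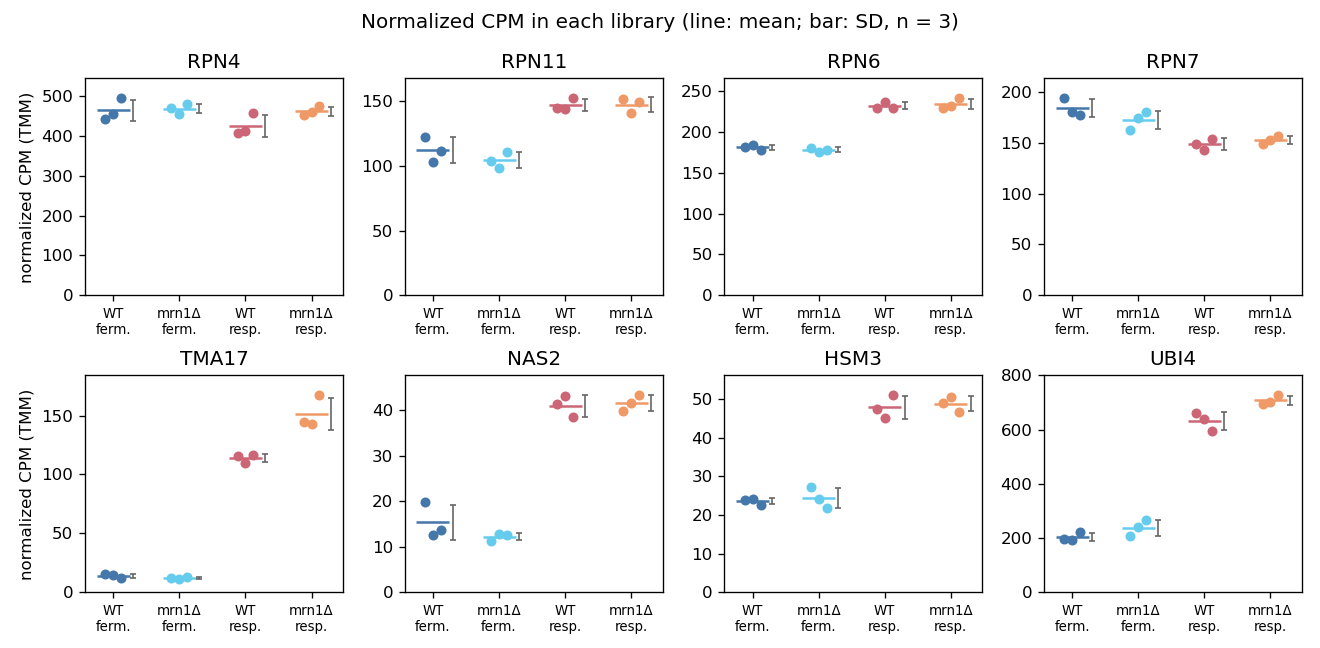
Normalized CPM (y axis, linear from 0) of RPN4, 3 lid subunits, 3 assembly chaperones and UBI4 in each library, by group (x axis; WT, wild-type; ferm. and resp., before and 20 minutes after the shift); lines are means and bars the SD of 3 libraries. RPN4 stays between 406 and 494, RPN11 and RPN6 step up slightly, RPN7 steps down, and TMA17, NAS2, HSM3 and UBI4 lie clearly higher after the shift, with HSM3 going from 23.5 to 47.8 in its wild-type means.

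The 4 ubiquitin genes split. UBI4, the stress-inducible polyubiquitin gene, went from 196.5, 194 and 222 to 659.9, 639 and 597 normalized CPM in wild-type and from 209, 239.6 and 268.5 to 694, 704 and 727.5 in mrn1Δ. Its log2 fold changes were 1.65 ± 0.10 and 1.57 ± 0.08. RPL40A, RPL40B and RPS31, which encode ubiquitin fused to ribosomal proteins, were lower by -1.33, -1.67 and -0.83 in wild-type and -1.40, -1.715 and -0.96 in mrn1Δ. RPL40A and RPL40B are near-identical copies, so reads may be divided between them. Among the shuttle receptors that carry ubiquitylated proteins to the proteasome, RAD23 and DSK2 were lower (-0.46 and -0.26 in wild-type, -0.67 and -0.29 in mrn1Δ) and DDI1 was higher (0.765 and 0.79). Of the Cdc48 complex, the ATPase CDC48 was higher by 0.21 and 0.20 and its cofactor NPL4 by 0.365 and 0.51, and UFD1 was not called. UFD1 was higher by 0.20 in wild-type without the fermentative library 1 (adjusted p = 0.034, edgeR). On log2(TPM + 1) DSK2 was at 0.04 and 0.06, so that its direction depended on the scale, and its wild-type call was also lost without respiratory library 3 (-0.22). The wild-type call of CDC48 was lost when any of the 6 libraries was left out, at 0.16 to 0.225, and also with upper-quartile scaling (adjusted p = 0.0722) and a looser or stricter filter (0.0501 and 0.0733). On log2(TPM + 1) RAD23 was at -0.16 in wild-type and was not called.

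Factors bound to the proteasome showed smaller changes. The ubiquitin chain elongating ligase HUL5 was higher by 1.01 ± 0.10 and 0.96 ± 0.06, FUB1 by 0.63 and 0.58, and ECM29, which tethers core and regulatory particle, by 0.29 and 0.245. HUL5 was at 0.895 in wild-type without the fermentative library 1. In mrn1Δ UBP6 and STS1 were also higher (0.14 and 0.24) and the alternative activator BLM10 was lower (-0.30), with no called difference between the genotypes. In wild-type neither STS1 nor BLM10 was called with all libraries. Leaving out the wild-type fermentative library 1 put them at 0.25 and -0.35 there, both called (adjusted p = 0.0201 and 0.00251, edgeR). On log2(TPM + 1) BLM10 was at 0.055 in mrn1Δ. The call of ECM29 in wild-type was lost without respiratory library 3 (0.24), and that of UBP6 in mrn1Δ without fermentative library 1 (0.10) or 2 (0.14) or respiratory library 1 (0.135) and with DESeq2 (0.10, adjusted p = 0.119).

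The genes of the factors that act on RPN4 did not move together. YAP1 was lower by -0.42 and -0.34, PDR3 was higher by 0.51 and 0.42 and HSF1 by 0.29 and 0.285, and PDR1 was lower by -0.12, called in mrn1Δ alone. On log2(TPM + 1) YAP1 was at -0.12 in wild-type and was not called. In mrn1Δ YAP1 was at 0.01 and PDR1 at 0.23 on log2(TPM + 1), PDR1 was at 0.05 with library totals alone, and its call was lost without fermentative library 2 (-0.12) or 3 (-0.11) or respiratory library 1 (-0.11) or 2 (-0.11). Of the ligase that turns Rpn4 protein over, the conjugating enzyme gene RAD6 was lower by -0.88 ± 0.07 and -0.67 ± 0.07, and MUB1 was not called. UBR2 was not called either, at 0.04 in wild-type, but it was lower by -0.25 (adjusted p = 0.00697, edgeR) without the wild-type fermentative library 1, which held 53.5 normalized CPM against 105.5 and 112 in libraries 2 and 3.

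Genes that carry the PACE letters but encode no subunit did not share the subunits' narrow range. Of 71 such genes, 11 of which share the very site with a neighbouring subunit gene, 70 were tested. In wild-type 36 were called higher and 21 lower on the shift, 81.4% in all, against 38.6% and 36.4% of all genes. Their SD was 1.13, beside 0.19 for the subunits and 1.14 for all genes. In mrn1Δ 37 were higher and 23 lower, 85.7% in all, against 43.2% and 40.3% of all genes. Their SD there was 1.27, beside 1.26 for all genes. Among the 35 listed genes 4 held the site: UBI4, CDC48, ECM29 and YAP1.

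The second question is whether loss of Mrn1 changed proteasome gene expression. In fermentative cells 0 of 31 subunits were called higher or lower by edgeR, against 0.588% and 0.328% of 5785 genes, and 1 subunit, RPT6, had an unadjusted p under 0.05, as had 878 of all genes. DESeq2 also called 0. The median log2 fold change was -0.09, beside -0.015 for all genes, and 4 of the 31 values were above 0. This offset rested largely on 1 library: without the wild-type fermentative library 1, which stood apart above, the median was -0.04. Groups did not overlap for 1 subunit higher and 6 lower, against 10.3% and 11.4% of all genes.

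The intervals of the subunits lay between -0.49 and 0.21, so that a change of 2-fold was outside every one of them. PRE3 measured 111, 83.0 and 88.1 normalized CPM in wild-type and 78.4, 80.1 and 79.2 in mrn1Δ, a log2 difference of -0.25 ± 0.11 (adjusted p = 0.329, edgeR). PUP3 and PRE5 followed with -0.22 and -0.21. Without the wild-type fermentative library 1 these 3 values were -0.105 (PRE3), -0.085 (PUP3) and -0.096 (PRE5). At the other end, the highest values were those of RPN9, RPN2 and RPN1 at 0.07, 0.06 and 0.04. RPN4 differed by 0.02 ± 0.07 with an interval of -0.15 to 0.18.

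In respiratory cells 0 of 31 subunits were called in either direction, against 6.79% higher and 7.83% lower of 5800 genes. No subunit had an unadjusted p under 0.05 with edgeR, as 1722 of all genes had, and DESeq2 also called 0. The median was 0.004, and all intervals lay between -0.285 and 0.27. Groups did not overlap for 2 subunits higher and 1 lower, against 16.8% and 17.9% of all genes. The highest subunits were PRE4, PRE1 and PRE3 with 0.13, 0.09 and 0.09, and the lowest were RPT4 and RPN10 with -0.10 and -0.09, followed by RPN2 and PRE10 with -0.06 each. RPN4 was 0.12 ± 0.07 higher in mrn1Δ, with an interval of -0.03 to 0.27 and an adjusted p of 0.28 (edgeR).

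**Figure D5:**
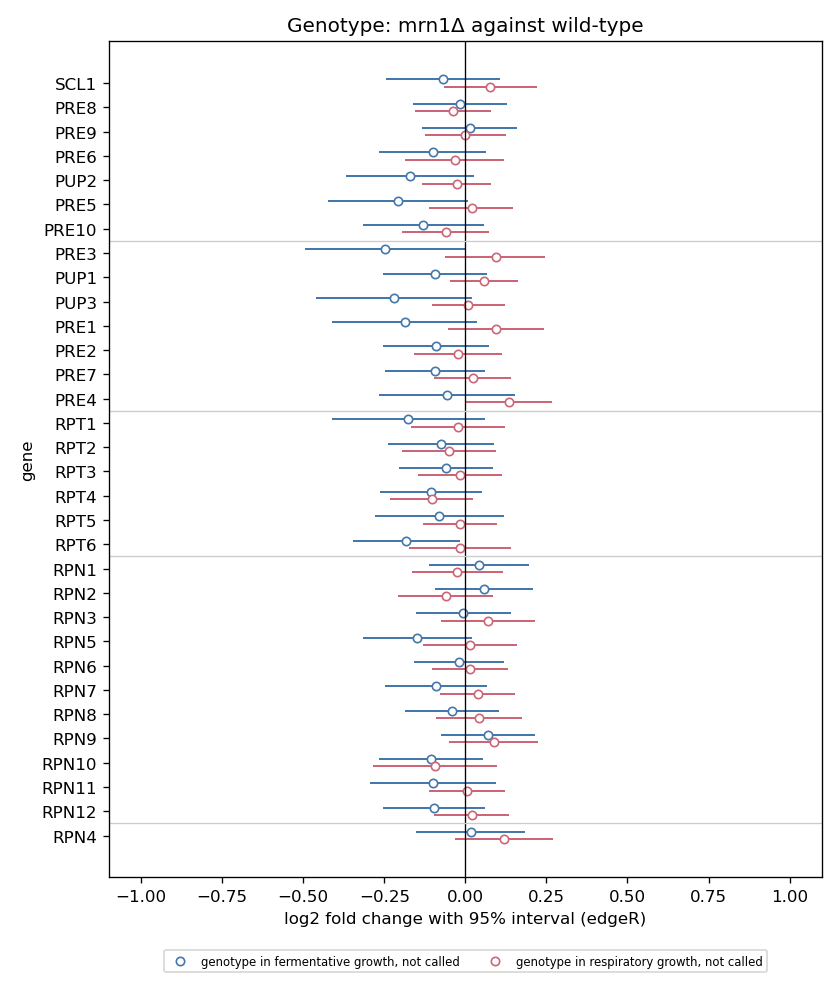
Log2 difference of mrn1Δ from wild-type (x axis) of each member (y axis) in fermentative (blue) and respiratory (red) cells, with 95% intervals from edgeR; open points were not called. No member was called in either condition; the fermentative values sit slightly left of 0 with a median of -0.09 and the respiratory values around 0.004.

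The interaction of genotype and shift was tested over all 12 libraries. None of the 31 subunits was called by edgeR, against 1.12% higher and 2.11% lower of 5828 genes, and DESeq2 also called 0. Of the unadjusted values 2 were under 0.05, PRE3 at 0.34 ± 0.135 (adjusted p = 0.186, edgeR) and PRE1 at 0.28 ± 0.12 (adjusted p = 0.224, edgeR). RPN4 had 0.105 ± 0.10 (adjusted p = 0.619, edgeR). After PRE3 and PRE1 came PUP3 with 0.23. Without the wild-type fermentative library 1 these were 0.19 (PRE3), 0.16 (PRE1) and 0.09 (PUP3). At the other end, RPN2, RPN1 and PRE8 were lowest with -0.12, -0.07 and -0.02. The median was 0.08, with 27 of 31 above 0, and it was 0.03 without the wild-type fermentative library 1. The calls seen in 1 genotype alone, such as those of PRE3 and PRE1, were thus not shown to differ between the genotypes.

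Of the 35 other pathway genes 1 was called in a genotype comparison. TMA17 was 0.41 ± 0.07 higher in mrn1Δ than in wild-type after the shift (1.33-fold, adjusted p = 0.00392, edgeR), with 145, 143 and 167 normalized CPM against 115, 109.7 and 116.5, and its 3 mrn1Δ libraries lay above all 3 wild-type libraries. Before the shift none of the 35 was called.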

How the data were processed

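RNA-seq of wild-type and mrn1Δ yeast before and 20 minutes after a carbon shift gave 3 libraries in each of 4 groups, grouped by the sample labels. The authors deposited estimated counts per coding sequence without normalization, and TPM values that sum to 1000000 per library. The submitters' processing notes name kallisto 0.44.0 and R64, and the strand setting is not given in the sources used here. Estimated counts were rounded to whole numbers. Of 5917 identifiers 5911 matched R64.

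Each comparison was fitted on all genes with edgeR 4.0.16 in R 4.3.3 (TMM, default expression filter, robust quasi-likelihood), on its own 6 libraries or, for the interaction, all 12. Normalized CPM used TMM over all libraries. Standard errors came from the F statistic. A count of 3 corresponds to 0.113 to 0.185 CPM, which covers counting error only. The tests were checked on simulated counts.

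Alternatives were DESeq2 1.42.0, upper-quartile scaling, library totals alone, a looser filter (1 count in total) and a stricter one (10 counts in each library), a joint fit of the 4 groups, a replicate block and leaving out each library. After the data were seen, limma 3.58.1 on log2(TPM + 1) was added. The 5 scales compared are TMM, DESeq2's size factors, upper quartile, library totals and TPM. Same-numbered libraries of each shift deviated together (correlations of 0.113 to 0.23 in wild-type and 0.148 to 0.278 in mrn1Δ, from the data and not from the labels), and those of the genotype comparisons did not all do so.

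The members and the pathway lists were chosen with earlier results of these data known. The text names RPN4, the 3 highest and 3 lowest subunits of each comparison and of the TPM levels, subunits called against the median, and listed pathway genes that were called. PRE3, PRE2, PRE4, PRE6, RPN3, RPN5 and RPT6 in the mrn1Δ shift were named after their values were seen. So were RPT6 in the fermentative genotype comparison, genes named as not called and genes that the alternatives added. Python 3.11.15, numpy 2.4.6, pandas 2.3.3 and matplotlib 3.10.9 were used for levels, motifs and figures.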

Additional observations from a re-analysis of the deposited data

Results flagged for a closer look

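The response of TMA17 to the carbon shift differed between the genotypes. The difference of the log2 fold changes, mrn1Δ minus wild-type, was 0.627 ± 0.13 (SE), with a 95% interval of 0.352 to 0.903 and an adjusted p of 0.0181 by edgeR's interaction test over all 12 libraries. TMA17 rose in both genotypes, by 3.04 in wild-type and 3.64 in mrn1Δ, and all 3 mrn1Δ respiratory libraries lay above all 3 of wild-type. The call was lost when the mrn1Δ fermentative library 1, the mrn1Δ fermentative library 2 or the mrn1Δ respiratory library 3 was left out, with adjusted p-values of 0.0539, 0.0684 and 0.0512 and values of 0.61, 0.55 and 0.55. Over all alternatives the difference was 0.55 to 0.72 and its adjusted p 0.0014 to 0.0684.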

How the results depend on the processing

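No subunit was called in a genotype comparison or the interaction under any alternative. The shift calls depended on scaling. With library totals alone 1 subunit was lower in wild-type, and in mrn1Δ 24 were higher and 0 lower with a median of 0.241. With limma on log2(TPM + 1), an alternative chosen after seeing the data, the counts were 23 higher and 0 lower in wild-type and 31 and 0 in mrn1Δ, with medians of 0.292 and 0.422. RPN4 in the mrn1Δ shift then turned to 0.15 with library totals and 0.333 with TPM. On TPM, RPN7 turned to 0.02 in wild-type and 0.179 in mrn1Δ, and PUP1 to 0.091 in wild-type. Of the listed pathway genes, UMP1 (0.081) and DSK2 (0.036) in wild-type and IRC25 (0.011), BLM10 (0.055), DSK2 (0.064), YAP1 (0.012) and PDR1 (0.227) in mrn1Δ also turned sign on TPM, and PDR1 (0.049) with library totals. On these 2 scales the median of all genes was 0.082 and 0.323 in wild-type and 0.215 and 0.382 in mrn1Δ. All 12 libraries in one fit called 6 lower in wild-type, and DESeq2 4 lower in mrn1Δ, where the cause was not tested. In these fits 2294 of 5828 and 2365 of 5793 genes were lower. The fermentative genotype median was -0.152 with upper-quartile scaling and -0.154 with library totals, and the interaction median 0.185 with library totals. The medians of all genes were then -0.073, -0.076 and 0.106.

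Leaving out each library in turn gave 2 to 7 subunits higher and 1 to 4 lower in wild-type, with a median of -0.066 to 0.034, and 12 to 14 higher and 1 to 2 lower in mrn1Δ. The fewest higher calls, 2 and 3, came without the wild-type fermentative library 3 and the wild-type respiratory library 3, and the fewest lower calls without the wild-type respiratory library 2. In mrn1Δ, 2 were lower without the fermentative library 1 or the respiratory library 2. The replicate block gave 4 lower in mrn1Δ and changed no genotype call, where same-numbered libraries correlated at -0.188 to 0.209. Depth was not the limit for the members, which had 1445 counts or more in every library, and the spread over 3 libraries set the precision.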

Other observations

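UBR2, the ligase gene of Rpn4 turnover, had 53.5 normalized CPM in the wild-type fermentative library 1 and 87.6 to 112 in the other 11 libraries. UBR2 was not alone in deviating there. Against libraries 2 and 3 of the group, BLM10 (311 against 400 and 391) and HUL5 (35.6 against 42.3 and 44.8) were also lower. Others were higher, such as POC4 (16.2 against 9.69 and 11.4). The cause was not tested.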
